A study of Homo sapiens with 4 samples.

Results

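Caveolins and cavins are the coat proteins of caveolae, the flask-shaped pits of the plasma membrane. In the list of sites called for YTHDF2 immunoprecipitation over input in HCCLM3 cells, 4 of these genes, CAV1, CAV2, CAVIN1 and CAVIN3, held 6 of the 14858 peaks. The 4 genes were chosen by the presence and values of their peaks in this list, so both are given as a description and carry no test. A peak was given to the gene named in its exon or intron annotation, and in the other classes to the gene whose hg38 span holds the summit, the point of highest coverage. The other family genes CAV3, CAVIN2 and CAVIN4 had no peak. Only called sites are listed, so nothing follows for the levels of these 3 genes.

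Caveolins are hairpin membrane proteins that assemble into oligomers. CAV1 is needed for caveolae outside muscle, CAV2 joins CAV1 in the coat, and CAV3 is the muscle form. Cavins are cytosolic proteins that bind the caveolin-rich membrane. CAVIN1 is required for caveolae to form, CAVIN2 shapes the membrane, CAVIN3 is a protein kinase C delta binding protein found in the coat, and CAVIN4 is a muscle form. In normal liver, caveolae are abundant in endothelium and scarce in hepatocytes.

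The study sequenced RNA bound to YTHDF2, a cytosolic reader of N6-methyladenosine that promotes mRNA decay, beside the input RNA it was taken from. The labels give 2 YTHDF2 RIP libraries and 2 input libraries, all from HCCLM3, a metastatic human hepatocellular carcinoma cell line of wild-type (WT) genotype, with no treatment named. No control pulldown is among the 4 libraries, and the processed data are 1 combined list, so values per library, their spread and the depth of sequencing are not known. Whether the replicates came from separate cultures is not stated. Of 8 hepatocyte markers, 1 had a peak, APOB (1.92-fold, 14 RIP fragments, not passing), while ALB, AFP, APOA1, TTR, SERPINA1, FGB and TF had none. The epithelial keratins KRT8 and KRT18 had peaks that passed, and EPCAM and CDH1 had none. Of cell types rich in caveolae, 1 of 5 endothelial markers had a peak, PECAM1 (4 RIP fragments, not passing). The same held for 1 of 6 fibroblast markers, LUM (27 RIP against 27 input fragments, not passing). The other 4 endothelial and 5 fibroblast markers had none, nor had the 4 adipocyte and 4 muscle markers. A marker without a peak cannot be told from a silent gene, so these lists do not check the cell type.

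The fold is the authors' enrichment of RIP over the caller's background at the summit. RIP fragments and input fragments are the whole numbers of fragments that the caller counted at the summit in the combined libraries, worked back from each peak's fold and p. Whether the caller counted every fragment sequenced is not known. A peak passed where the authors' q for it was 0.01 or less. The list also holds weak calls, with a lowest −log10 p from the caller of 1.30 and a median −log10 q of 0.994. Because fragments are counted at 1 position, the numbers do not grow with gene length.

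CAV1 has a downstream and an upstream set of transcript starts in RefSeq, and its strongest peak was classed as a promoter peak against the downstream one. The 250 bases before the first and the third listed start are shown because the class is set by the distance to such a start, with the GC box GGGCGG (or CCGCCC on the other strand) in capitals. The first is chr7:116524759-116525008 and the second chr7:116526112-116526361, both on the + strand of RefSeq's GRCh38.p14.
CAV1 upstream start: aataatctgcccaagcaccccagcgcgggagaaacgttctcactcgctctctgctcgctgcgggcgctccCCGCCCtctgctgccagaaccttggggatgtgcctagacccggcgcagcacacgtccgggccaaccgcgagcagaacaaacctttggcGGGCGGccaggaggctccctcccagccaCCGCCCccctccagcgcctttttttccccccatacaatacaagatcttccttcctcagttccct
CAV1 downstream start: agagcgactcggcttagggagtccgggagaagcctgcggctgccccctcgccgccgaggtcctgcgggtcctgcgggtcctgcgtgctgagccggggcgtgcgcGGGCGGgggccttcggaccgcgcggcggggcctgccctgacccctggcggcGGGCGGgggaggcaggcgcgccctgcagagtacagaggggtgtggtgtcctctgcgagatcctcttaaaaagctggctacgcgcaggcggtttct
The upstream window held 1 GC box on the gene's strand and 2 on the other, and the downstream window 2 on the gene's strand. GGGCGG or CCGCCC was present in 42.6% of the 35116 RefSeq windows of the same length, and neither CAV1 window held TATAAA or TTTATA, which 10.7% of windows held. The promoter-class peak lay outside both windows. It started 1530 bp after the first base of the upstream start and 177 bp after that of the downstream start, inside the transcribed span of the gene. RefSeq also gave 2 windows for CAV2 and none was matched for CAVIN1 and CAVIN3.

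CAV1 (chromosome 7, 116525009 to 116561185) held 3 of the 6 peaks. The promoter-class peak (116526539 to 116526933) had 295 RIP fragments (95% Poisson interval 262 to 331) against 183 input fragments. Its fold was 2.36 and its −log10 q of 33.4 ranked 162 of all 14858 peaks. In the scaling of the caller, 1 input fragment counted as 0.680, so the ratio of RIP to scaled input without a pseudocount was 2.37 (exact 95% interval 1.97 to 2.87). All such intervals cover counting error only, since PCR copies cannot be told from separate molecules here. The RIP number at this summit was 1.61 times the input number before scaling (exact interval 1.34 to 1.95).

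The 3' UTR peak of CAV1 (116559185 to 116561365) was 2181 bp wide and ran 180 bp past the annotated end of the gene. It had 273 RIP fragments (242 to 307) against 254 input fragments, and its fold was 1.58 at a −log10 q of 8.73. The ratio to scaled input was 1.58 (1.33 to 1.88), and this interval lay wholly below that of the promoter-class peak of the same gene. The site with more input at its summit thus had the lower fold, and the RIP numbers of both sites were close, with overlapping Poisson intervals.

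The remaining CAV1 peak lay in intron 2 (116550609 to 116550945) and did not pass, with a q of 0.0158. It had 18 RIP fragments (10.7 to 28.4) over a background of 6.21, and its fold of 2.64 was the highest of the 6 peaks. That background was set by 29 input fragments in the surrounding 1 kb and not by the summit itself. Of all 3180 intron peaks, 7.26% passed, and the median intron peak had 3 RIP fragments.

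CAV2 (chromosome 7, 116499738 to 116508541) had 1 peak, in its 3' UTR (116506207 to 116508672), 2466 bp wide. It had 309 RIP fragments (276 to 345) against 300 input fragments. The RIP number ranked 3 of all 14858 peaks and 1 of the 4099 3' UTR peaks, and the background ranked 2 and 1. The fold was nonetheless 1.51, with a −log10 q of 8.14, and 2.06% of passing peaks had a lower one. Before scaling, the RIP number was 1.03 times the input number (exact interval 0.876 to 1.21), and the ratio to scaled input was 1.52 (1.29 to 1.78). Before scaling, the CAV2 numbers thus differed by less than counting error, and equal numbers of RIP and input fragments give a scaled ratio of 1.47 in this list. The same held for the CAV1 3' UTR peak, at 1.07 times the input number (0.903 to 1.28). The CAV2 numbers lay near the highest in the list, 324 RIP and 304 input fragments. The intervals take the counts as free of a limit per position, which was not tested, so near-equal numbers are not read as a result. Unscaled numbers leave out the caller's own adjustment of input to RIP, 0.680 per input fragment, so they do not measure enrichment. The depth of each library is unknown here. The intervals of the ratio to scaled input lay above 1 at both peaks.

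**Figure D1:**
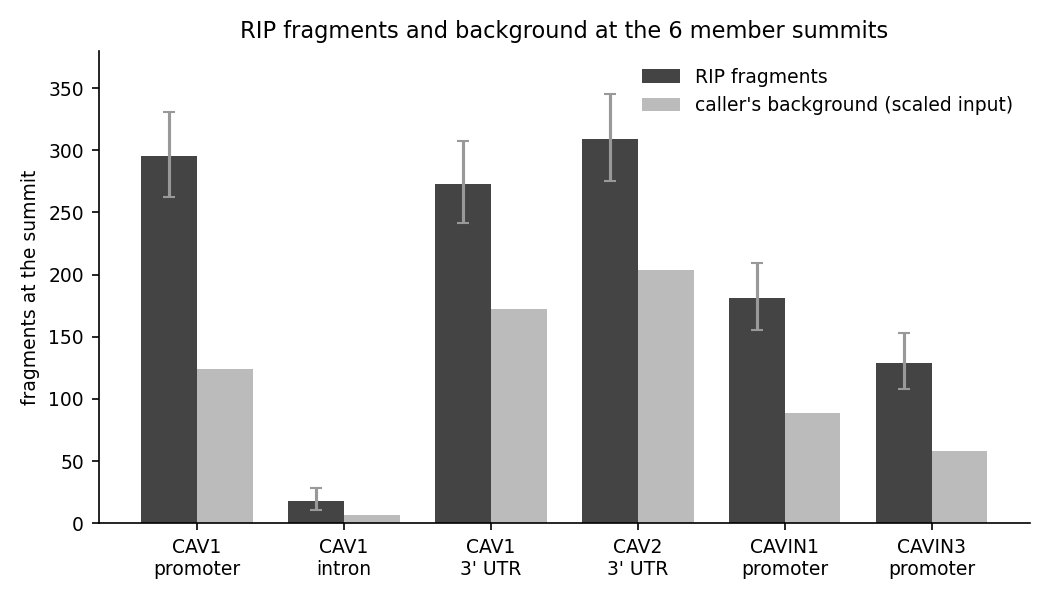
RIP fragments (dark bars, with 95% Poisson intervals) and the caller's background, which is scaled input (light bars), at the summit of each of the 6 peaks. RIP fragments range from 18 at the CAV1 intron peak to 309 at the CAV2 3' UTR peak, and the background is highest at the CAV2 and CAV1 3' UTR peaks.

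CAVIN1 (chromosome 17, 42402449 to 42423256, minus strand) had 1 peak of the promoter class (42422391 to 42422766). It had 181 RIP fragments (156 to 209) against 130 input fragments, and its fold was 2.04 at a −log10 q of 13.9. Its summit lay 604 bp inside the gene from the 5' end, and the list held no other peak in the gene. The ratio to scaled input was 2.05 (1.63 to 2.59).

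CAVIN3 (chromosome 11, 6318946 to 6320501, minus strand) is the shortest of the 4 genes at 1556 bp. Its single peak (6318817 to 6319216) had 129 RIP fragments (108 to 153) against 85 input fragments, and its fold was 2.21 at a −log10 q of 12.0. The peak carries the class of a promoter within 1 to 2 kb, but its summit lay 146 bp from the 3' end of the gene and the peak ran 129 bp past that end. The ratio to scaled input was 2.23 (1.68 to 2.97). The promoter class thus covered a site at the 5' end in CAVIN1 and one at the 3' end in CAVIN3, and neither lay upstream of its gene.

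**Figure D2:**
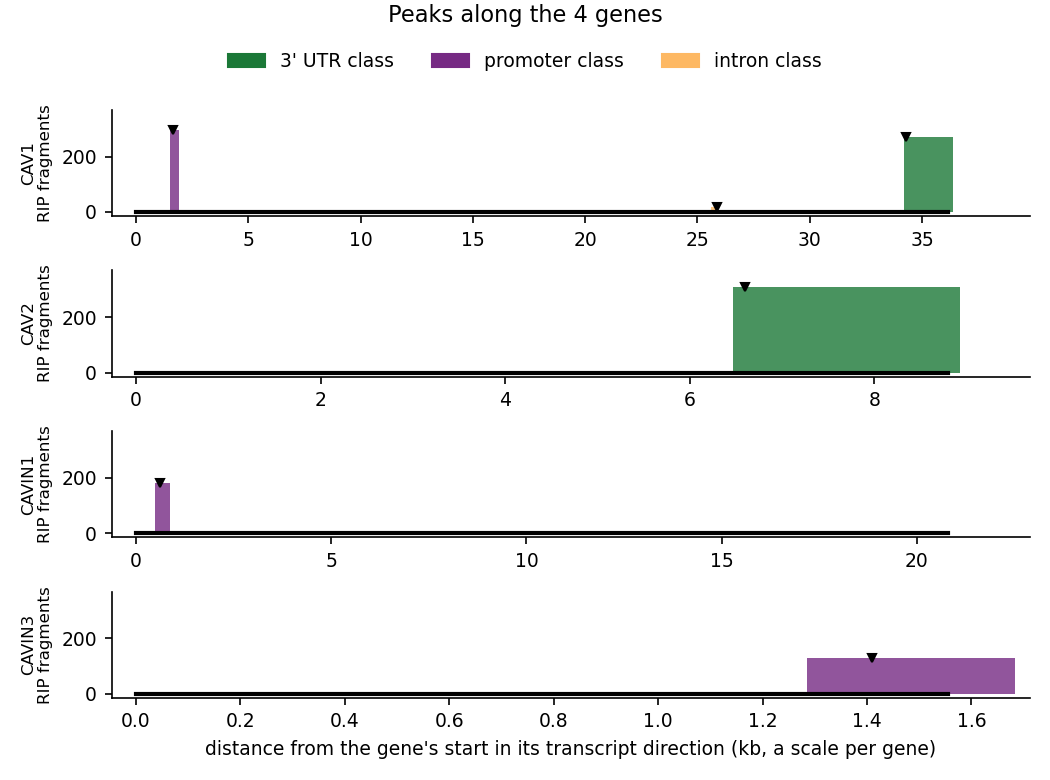
Peaks along the 4 genes, each drawn from the gene's start in its own transcript direction in kb (a separate scale for each gene). A box spans the width of a peak and its height is the RIP fragments at the summit alone, which the triangle marks. CAV1 and CAV2 have 3' UTR boxes of 2181 and 2466 bp with the summit near the upstream edge, and the boxes of CAVIN1 and CAVIN3 lie at opposite ends of their genes.

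Of the 6 peaks 5 passed, and 37.3% of all peaks did. By class, 56.6% of promoter-class and 50.9% of 3' UTR peaks passed. At a q of 0.05 or less all 6 passed (44.7% of all peaks), and 5 did when the −log10 q had to reach 5 (20.8%), or a q of 0.01 together with 20 RIP fragments was asked (30.1%). Each of the 4 genes had a passing peak, against 50.2% of all 7876 genes with a peak and 53.1% of protein-coding ones, and nothing is read from this because the genes were chosen for their peaks. The median fold of the 5 was 2.04 (range 1.51 to 2.36), against 2.53 over all passing peaks. Their RIP fragments had a median of 273, against 66 over all passing peaks. The background was higher too, with a median of 124 against 25.8. The exact intervals of the ratio overlapped between CAVIN1, CAVIN3 and the CAV1 promoter-class peak, so their order by fold is not resolved by the counts. The interval of CAV2 overlapped those of CAVIN1 and CAVIN3 and lay below that of the CAV1 promoter-class peak.

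**Figure D3:**
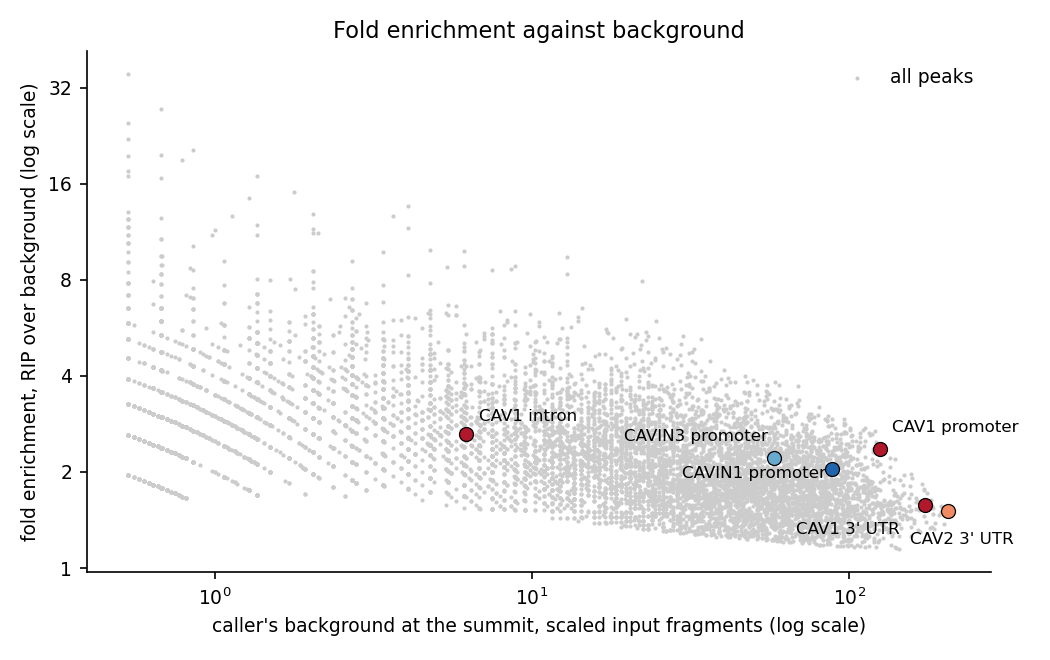
Fold enrichment against the caller's background at the summit for all 14858 peaks (grey), with the 6 caveolin and cavin peaks coloured by gene, both axes on a log scale. The CAV1 and CAV2 3' UTR peaks sit at the right end with folds of 1.58 and 1.51, and the CAV1 promoter-class peak lies above them at 2.36.

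The highest folds in the list became smaller as the background grew. No peak had more than 324 RIP fragments or 304 input fragments. The shortest peak, read as the fragment length in the caller, was 315 bp. The 22 peaks with at least 250 input fragments at the summit had folds of 1.32 to 1.77. The 3' UTR peaks of CAV1 and CAV2 were 2 of these 22. Among the 338 peaks with at least 150 input fragments, which also took in the CAV1 promoter-class peak, the median fold was 1.55 and the highest 2.74. Whether a limit on fragments counted per position lowered the RIP numbers or folds of the CAV1 and CAV2 3' UTR peaks was not tested.

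Width set the 3' UTR sites of CAV1 and CAV2 apart from the other 4 peaks, which were 337 to 400 bp wide. CAV2 ranked 3 and CAV1 ranked 5 by width among 4099 3' UTR peaks, whose median was 404 bp. Both summits lay close to the upstream edge of the peak, 130 bp from it in CAV2 and 115 bp in CAV1, which is 5.27% of the width in each. They were thus 2204 bp and 1885 bp short of the annotated ends of CAV2 and CAV1. The distance in bp to the upstream edge was not particular to the broad sites. It was 126 bp at the CAV1 promoter-class peak, 114 bp at CAVIN1, 124 bp at CAVIN3 and 266 bp at the CAV1 intron peak. Only 6 of the 3' UTR peaks were 2000 bp or wider. The other four were those of MET, the hepatocyte growth factor receptor (2408 bp), IDS, a lysosomal sulfatase (3180 bp), the G protein subunit GNAQ (2663 bp) and the 14-3-3 protein YWHAZ (2090 bp). The MET summit lay 1924 bp from the upstream edge and that of YWHAZ 93 bp, so the upstream position was not shared by all broad sites.

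**Figure D4:**
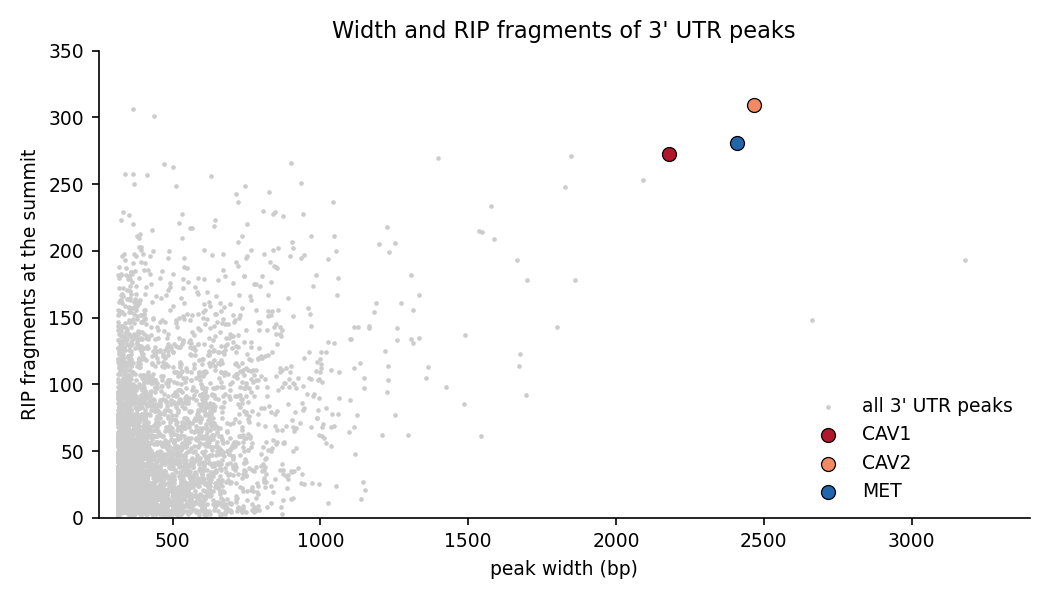
Peak width in bp against RIP fragments at the summit for the 4099 3' UTR peaks (grey), with CAV1, CAV2 and MET coloured. The 3 coloured peaks lie at the upper right, between 2181 and 2466 bp and between 273 and 309 RIP fragments.

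CAV1, CAV2 and MET are neighbours. CAV2 ends 16467 bp before CAV1 begins, MET begins 111010 bp after CAV1 ends, and the summits of their 3 broad 3' UTR peaks spanned 291734 bp. MET had 8 peaks, 6 of them passing, and its 3' UTR peak had 281 RIP fragments against 282 input fragments (1.46-fold). On the other side of CAV2, TES, a focal adhesion protein, had 4 passing peaks with 207 to 254 RIP fragments and folds of 1.81 to 2.90. CAPZA2, an actin capping subunit farther along, held no summit, and 3 passing peaks that the deposited table names for it fell in LOC124901731 with 126 to 150 RIP fragments. The deposited table also names CAPZA2 for the broad 3' UTR peak of MET. It names COMETT for the other MET peaks except the promoter-class one. In the 1 Mb bin of chromosome 7 that begins at 116 Mb, 16 of 26 peaks passed, against a median of 1 passing peak over 2310 bins with a peak. The bin ranked 17 by passing peaks. The median passing peak in it had 222 RIP fragments, which ranked 4 among the 348 bins with at least 5 passing peaks, whose median was 81.8. The bins were not ranked by background. Copy number was not measured in these libraries, and its part in these values was not tested.

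**Figure D5:**
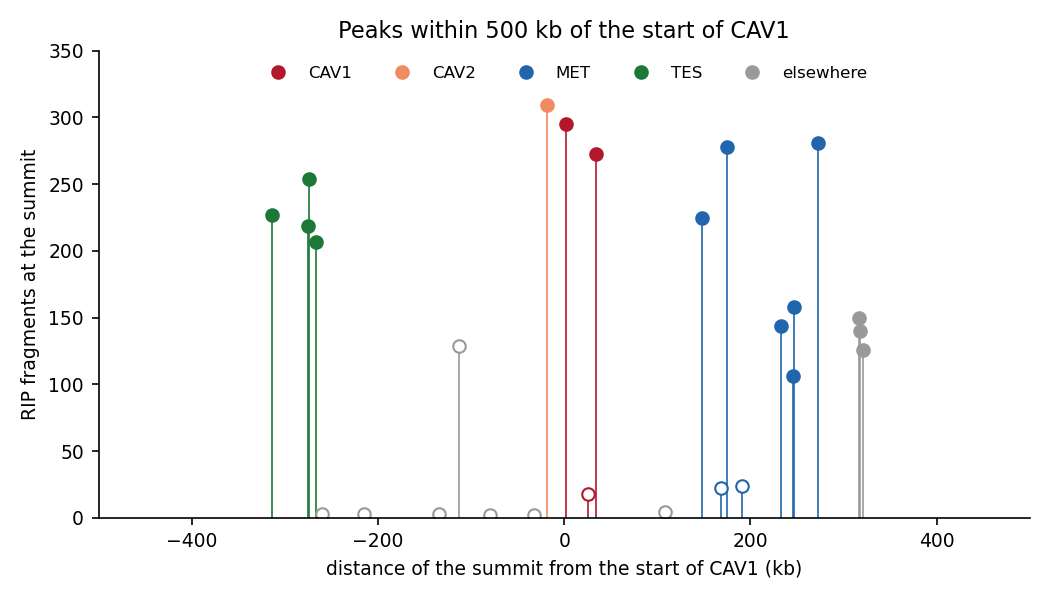
RIP fragments at the summit of every peak within 500 kb of the start of CAV1, by distance in kb, coloured by gene. Filled points passed a q of 0.01 and open points did not. The filled points of TES, CAV2, CAV1 and MET lie between 106 and 309 fragments, with peaks of 2 to 4 fragments and 1 open point of 129 fragments between the genes.

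The open point with 129 RIP fragments (116411749 to 116412134) had 147 input fragments and a fold of 1.29, and its −log10 q was 0.166. It lay 113 kb before the start of CAV1 in no RefSeq gene span. The deposited table gave it, and 2 further peaks of 2 RIP fragments each inside CAV2-DT, to CAV2 as the nearest start. None of the 3 passed.

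Around the cavin genes, STAT3, which flanks CAVIN1 at 14006 bp on the lower-coordinate side, had no peak, and ATP6V0A1 on the other side had 3 that did not pass, the best with 7 RIP fragments. CCKBR and SMPD1, which flank CAVIN3, had none.

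Genes with a strongest peak of the same class and the nearest RIP fragments and background, by Euclidean distance on the log2 scale, were sought for each member. These are 2 values per gene from 1 list and say nothing of shared regulation. CAV1 was nearest to ASPH, an aspartate beta-hydroxylase (301 RIP against 178 input fragments), and FTH1, the ferritin heavy chain (310 against 173), among 1485 genes. CAVIN1 was nearest to RBCK1 (178 against 131) and GCLM (185 against 133), and CAVIN3 to EIF4H (129 against 83) and TMEM65 (125 against 85). CAV2 had no gene as near. Its closest among 2710 were NHERF2 (301 against 252) at a log2 distance of 0.25 and HNRNPF (248 against 238) at 0.46, where the distances of the other 3 members were 0.03 to 0.11. MET was not compared with CAV2, because its strongest peak is of the promoter class. The 3' UTR peak of MET had 281 RIP against 282 input fragments.

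Among 11 genes that act at the neck of caveolae or bend membranes, 6 had a peak and 5 had one that passed, to be read against the 50.2% of genes with a peak above, and 3 had one at a −log10 q of at least 5 (29.8% of genes with a peak). With the gene of the nearest start site, as deposited, 2 of the 11 passed. EHD2, the ATPase that forms rings at the caveolar neck, had a fold of 2.47 with 99 RIP fragments against 58 input fragments in a promoter-class peak (chromosome 19, 47742584 to 47743239). Its relative EHD1 had a fold of 2.60 (136 against 76) in the 3' UTR. FLNA, the actin crosslinker that tethers caveolae, had 10 peaks of which 8 passed, the strongest with a fold of 2.19 (223 against 149). PACSIN2, an F-BAR protein that bends the caveolar membrane, had 7 peaks of which 2 passed. The one with the lowest q had a fold of 1.61 (107 against 97) in the 3' UTR. The scission GTPase DNM2 had a fold of 2.37 with 42 RIP fragments. DNM1, the neuronal dynamin, had a peak of 2.44-fold that did not pass. The median fold of the 5 best peaks was 2.37, against 2.62 over the best peaks of all 3956 genes with a passing peak. EHD3, EHD4, PACSIN1, PACSIN3 and DNM3 had no peak.

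Of 8 flotillin-family scaffolds, which organise other membrane domains, 5 had a peak and 3 of these 5 passed, close to the 50.2% of all genes with a peak. Those that passed were PHB2 (2.22-fold, 126 RIP fragments), FLOT2 (2.69-fold, 62 against 33 input fragments) and ERLIN1 (3.94-fold, 14 RIP fragments, 1 of 2 peaks passing). PHB1 (1.55-fold) and STOM (2.30-fold) had peaks that did not pass. Of 12 kinases and partners of CAV1, 8 had a peak and 4 of these 8 passed, close to the same 50.2%, and 2 had a peak whose −log10 q reached 5. VCP and its cofactor UBXN6, which act in the sorting of caveolin-1 for degradation, had folds of 2.25 (125 against 81) and 2.87 (62 RIP fragments). SRC, a kinase that phosphorylates caveolin-1, had a fold of 1.68 (84 against 73) and ABL1 a fold of 2.36 (43 against 26). Counting all peaks of each gene, 1 of 2 passed in VCP, 1 of 3 in SRC and 2 of 3 in ABL1. YES1, TGFBR1, TGFBR2 and INSR had peaks that did not pass, with 57, 96, 5 and 4 RIP fragments at the best of each. The median fold was 2.69 over the 3 flotillin-family genes and 2.30 over the 4 partners that passed.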

How the data were processed

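The labels give 2 YTHDF2 RIP and 2 input libraries of HCCLM3 cells, made with a RIP kit and a stranded low-input total RNA kit per the labels' protocols. HISAT2, MACS2 and hg38 are named in the submitters' processing notes. Versions, options and the way libraries were combined: not given in the sources used here. Each deposited fold is a ratio that the authors' caller set for RIP over background at the summit, per the file headers. The authors deposited a −log10 p and a −log10 q for each peak. Their deposited score is the −log10 p times 10 without decimals, and served no step here.

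RIP fragments k and background b were solved from fold = (k + 1) / (b + 1) and the Poisson tail above k (python 3.11.15, scipy 1.17.1). The −log10 p was met within 0.000189 for every peak, and 100% of 2000 simulated peaks were recovered. The simulated peaks were made from the same formula with whole input fragments only, so their recovery checks the algebra alone. Backgrounds were whole multiples of 0.680 within 0.01 of an input fragment for 58.0% of peaks, and for 78.3% of those with a background above 5. These were read as input fragments at the summit. Another 17.7% were whole in a window of 1 kb. Library depth is unknown here.

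Gene names and spans came from RefSeq GRCh38.p14, whose table gives no strand. The strand of each gene, and so which end of it is 5', came from the strand column of the deposited list. Overlapping spans were settled in the order protein-coding, deposited, shortest. No other RefSeq gene overlapped CAV1 or CAV2, and no protein-coding gene overlapped CAVIN1 or CAVIN3.

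The members and gene lists were chosen with earlier results of these data known. Named genes were the family, list genes with a passing peak (and others with a peak), flanking genes and the 2 nearest in fragments. IDS, GNAQ, YWHAZ, CAV2-DT, LOC124901731 and list genes or markers whose peaks did not pass were named after their values were seen. No test between samples was possible. Alternatives covered the gene assignment, the q threshold, the pseudocount and the choice of best peak.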

Additional observations from a re-analysis of the deposited data

How the results depend on the processing

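Of 26 alternatives to 10 results, 22 stayed within the limits set (1.5 times for counts, the counting interval for folds). The count of caveolin and cavin peaks was 9 with the deposited gene and 6 by overlap with the gene span, against 6, and the count that passed was 5 or 6 under every alternative run. The median fold of the passing peaks was 1.55 when the promoter class was left out, against 2.04, because this leaves the 2 3' UTR peaks alone. The caveola neck list fell to 3 genes at a −log10 q of at least 5 and to 2 with the deposited gene, against 5, and the CAV1 kinases and partners to 2 at a −log10 q of at least 5, against 4. The cause of the change with the deposited gene was not tested. No paired analysis was possible because the deposited list holds no value per library, and leaving out a replicate was not possible for the same reason. The highest-fold peak of CAV1 is the intron peak (2.64-fold), which rests on 18 RIP fragments.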
